A study of Mus musculus with 6 samples.

Results

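The 9 genes described here encode surface proteins and signalling molecules of mature B cells, namely Ms4a1, Cd22, Cd79a, Cd79b, Cr2, Fcer2a, Blk, Bank1 and Cd37. They were chosen by name with earlier results of these data known, and all 9 were found among the 56496 genes of the deposited table. RNA-seq was made from bone marrow cells of female BALB/c mice whose 4T1 tumour (4T1 is a mammary carcinoma line of this strain) had been resected. Of the 6 libraries, 3 were of mice dosed with Onway through gavage over 2 weeks (Onway 1, Onway 2 and Onway 3) and 3 of mice left without it (Control 4, Control 5 and Control 6). The sources used here give neither the content of Onway nor whether each library had its own mouse, so a p-value measures spread among the libraries, which may be technical. The labels carry day 0 for Control and day 14 for Onway, so day and treatment cannot be told apart. The genotype field of the labels names no allele. The labels' extraction text also lists a culture medium with dexamethasone, isobutylmethylxanthine and insulin, and the labels do not say how it relates to these marrow samples.

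A B cell senses antigen through a membrane immunoglobulin that is held in a complex with Cd79a and Cd79b, whose tails carry the phosphorylation motifs that start signalling. Src family kinases such as Blk act on those motifs, adaptors such as Bank1 pass the signal on, Cr2 lowers the threshold for complement-coated antigen, and Cd22 dampens the response. In marrow, B cells are made from pro-B and pre-B cells, which already carry Cd79a, Cd79b and Blk. Cr2 and Fcer2a appear late, on B cells that have left the marrow and can return to it with the blood, and Cd37 is also carried by other leucocytes.

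Promoter sequence is shown for members with different patterns across the libraries, so that the upstream letters can be read beside the values. Of the 9 members 6 (Cr2, Bank1, Cd79a, Cd22, Cd37 and Fcer2a) had entries in a RefSeq promoter table of build GRCm38.p6, in 8 windows of 250 bases before an annotated start site. Capitals mark matches, on either strand, to the E-box CAGGTG, a sequence bound by E2A proteins, or to the PU-box core GAGGAA. No printed stretch reaches into an exon of GENCODE M21, which shortens that of Cd79a to 134 bases and that of Fcer2a to 249. The stretches are Cd79a at chr7:24897247-24897380 (plus strand), Cr2 at chr1:195176720-195176969, Bank1 at chr3:136326067-136326316 and Fcer2a at chr8:3694176-3694424 (minus strand for the latter 3), each printed 5′ to 3′ on the gene's strand.
Cd79a: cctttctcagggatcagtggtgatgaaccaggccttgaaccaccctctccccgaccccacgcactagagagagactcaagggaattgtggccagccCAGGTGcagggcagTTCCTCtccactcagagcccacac
Cr2: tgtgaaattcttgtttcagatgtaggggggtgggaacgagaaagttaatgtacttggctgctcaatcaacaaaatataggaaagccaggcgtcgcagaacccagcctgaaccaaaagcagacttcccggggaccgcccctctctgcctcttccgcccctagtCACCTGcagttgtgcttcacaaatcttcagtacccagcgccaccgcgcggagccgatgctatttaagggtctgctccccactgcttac
Bank1: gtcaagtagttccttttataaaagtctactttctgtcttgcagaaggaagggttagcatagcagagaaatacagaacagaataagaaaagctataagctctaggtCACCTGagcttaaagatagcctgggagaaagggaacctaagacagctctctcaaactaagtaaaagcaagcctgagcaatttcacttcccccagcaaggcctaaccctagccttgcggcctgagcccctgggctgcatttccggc
Fcer2a: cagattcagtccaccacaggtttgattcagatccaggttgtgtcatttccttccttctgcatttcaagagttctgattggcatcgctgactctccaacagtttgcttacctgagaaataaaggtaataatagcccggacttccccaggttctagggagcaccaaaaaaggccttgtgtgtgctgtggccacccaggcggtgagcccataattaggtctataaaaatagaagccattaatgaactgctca
The E-box was present in 6 of the 8 windows, against 17.2% of 32851 windows of the same length in the table. Fcer2a supplies 3 of the 8 windows, and its matches lie in a window that is not printed, while the printed stretch holds none. By GENCODE M21 that window lies inside the gene. The windows of Cd22 and Cd37 had 0 bases before the first exon and held 102 and 165 exon bases, so their matches also lie inside the genes. The E-box positions are counted from the start site of the promoter table. They were 154 to 149 bases before it in Cd79a, 145 to 140 in Bank1 and 88 to 83 in Cr2. For Cd79a 116 bases of exon lie between the end of the printed stretch and that start site. The PU-box matched in 2 of the 8 windows (Cd79a and Cd37), against 23.3%. The octamer ATTTGCAT, bound by Oct factors, matched in 0 of the 8 windows, against 1.6%, and the EBF1 palindrome (TCCC and GGGA parted by any 2 bases) matched in 1 (Cd22), against 0.779%. These motifs do not overlap in the printed stretches. A match is a run of letters and was not tested as a site.

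All 9 members were higher on average in Onway than in Control, with Onway 3 the highest library for 8 of them and Onway 2 for Cd37, and 0 of 9 passed the test over all genes. Values are TPM (a transcript level scaled for length and library total) as deposited, summed per gene. The test was limma on log2(TPM + 1) with Benjamini-Hochberg adjustment over the 14192 genes whose mean reached 1 TPM, and a threshold of 0.05. In it 3.22% of the tested genes passed, 0.233% as higher in Onway and 2.99% as lower. The genes passing as higher numbered 33, against 73 with median-of-ratios scaling and 17 to 87 with 1 library left out. The adjusted p-values of the members lay between 0.18 and 0.44. At an unadjusted p under 0.05, 8 of 9 members were higher, where 4.95% of the tested genes were. That count was 1 of 9 without Control 5, without Control 6 or without Onway 3, and 2 of 9 without Onway 2. It was 8 of 9 without Control 4 or without Onway 1. The median log2 fold change was 1.48 over the members and 0.03 over all tested genes, of which 53.6% had a positive sign. Cr2 reached the level filter only through its Onway libraries, so these counts are a description. With no filter on low values 0 of 9 passed as well.

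In every member Onway 2 and Onway 3 both exceeded all 3 Control libraries. These libraries were singled out from the same values. The share of all tested genes with this pattern was not computed, so it is a description only. Onway 1 was the lowest Onway library for 8 of 9 members, and it was under Control 4 for 6 of them. For 3 members (Fcer2a, Bank1 and Cd37) all Onway libraries exceeded all Control libraries, as they did for 6.95% of tested genes. Bank1 lost this separation with haemoglobin genes removed. The spread within a group was wide. The median SD of log2(TPM + 1) over the members was 1.05 in Onway and 0.58 in Control, against 0.27 and 0.21 over all tested genes. In bulk marrow, more cells of a type and more RNA per cell cannot be told apart.

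**Figure D1:**
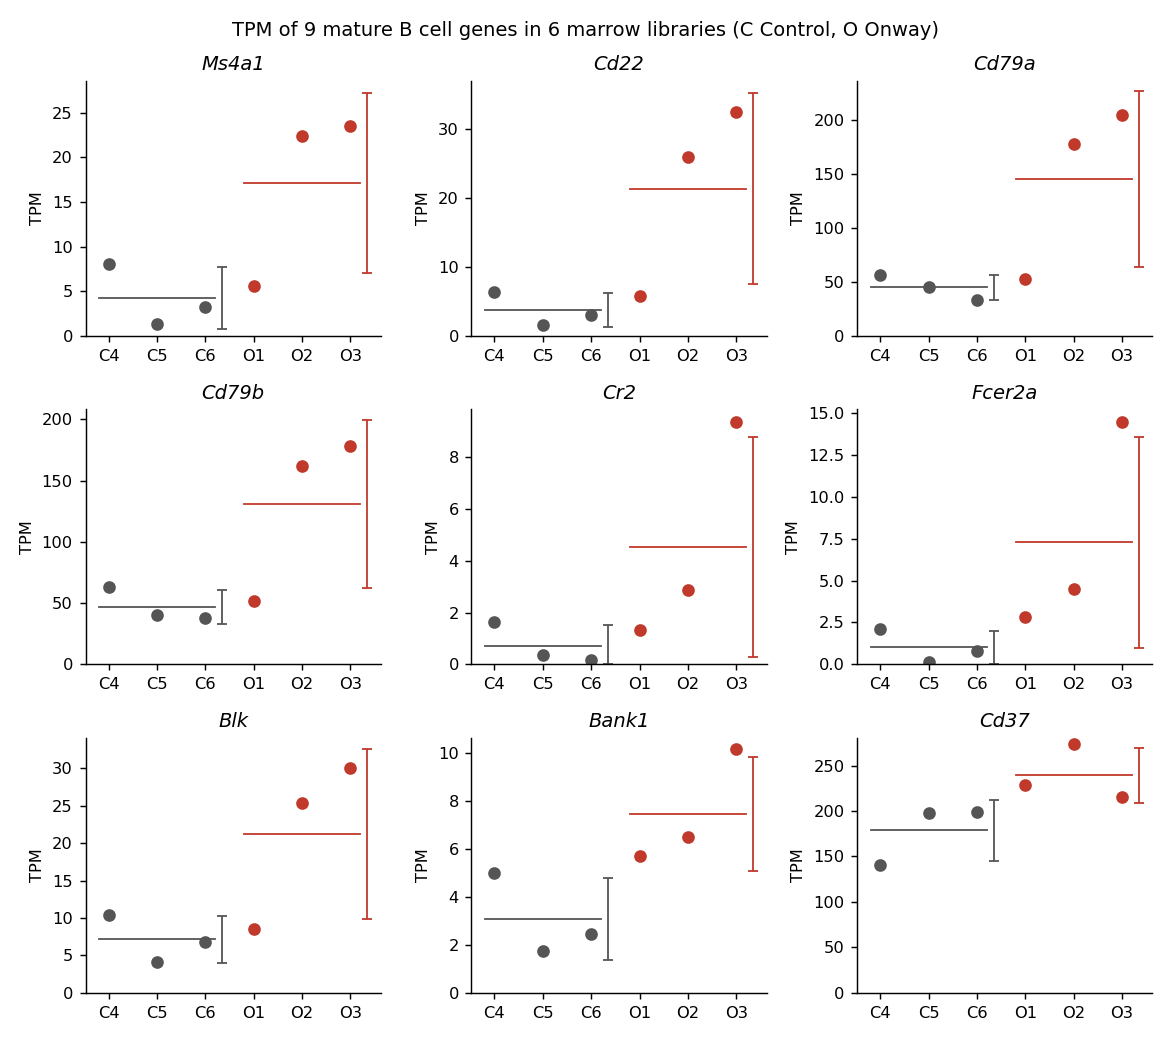
TPM of each member in the 3 Control (C4 to C6) and 3 Onway (O1 to O3) libraries, with the group mean as a line and the SD (n = 3) as a bar, cut at 0 where it reaches below. Onway 2 and Onway 3 lie above every Control library in all 9 panels, while Onway 1 lies among or near the Control libraries for most genes. This pattern was read from the plotted values and was not tested.

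Markers of other cells differed between the same libraries, and their part in the member values was not tested. All 12 megakaryocyte markers passed as lower in Onway, as did 10 of 12 skeletal muscle markers and 8 of 10 tested markers of follicular dendritic cells and stroma, while 6 of 16 tested immediate early genes passed as higher. The megakaryocyte list summed to 2074 to 2361 TPM in Control and to 112 to 177 TPM in Onway, the muscle list to 748 to 4829 and 17.3 to 25.0 TPM, and the immediate early list to 279 to 411 and 1098 to 2811 TPM. Follicular dendritic cells also carry Cr2. The list that joins their markers with those of general stroma summed to 468 to 800 TPM in Control and 72.5 to 81.8 TPM in Onway. Cxcl13, a chemokine of follicular dendritic cells, was at 0 to 0.240 TPM, and the sum does not single out those cells. The T and NK cell list summed to 161 to 239 TPM in Control and 141 to 150 TPM in Onway, with 0 of 10 tested markers passing and 8 of 10 with a positive log2 fold change. Bone marrow, the labelled tissue, is rich in neutrophils. For neutrophils and for monocytes and dendritic cells 0 of 12 and 0 of 11 tested markers passed, and their sums overlapped between the groups (100200 to 216300 against 110700 to 196900 TPM, and 308 to 568 against 355 to 815 TPM). The 9 members summed to 287 to 293 TPM in Control versus 364, 702 and 719 TPM for Onway 1, 2 and 3, with Cd37 the largest term in each library. Cd37 was lowest in Control 4, where the other 8 members had their highest Control level. The narrow Control range of the sum therefore hides their spread, and Onway 1 was under Control 4 for 6 of the 9 members.

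**Figure D2:**
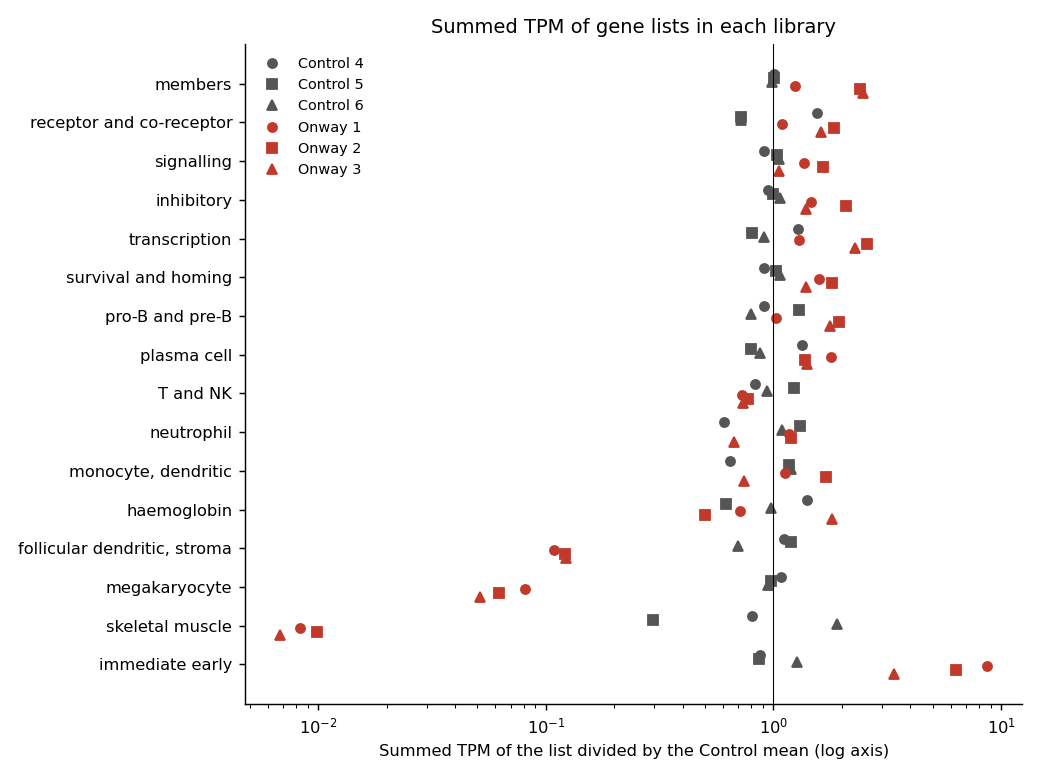
Summed TPM of each gene list in each library, divided by the mean of the 3 Control libraries, on a log axis. Members and the other B lineage lists lie near or above 1 in Onway, T and NK markers lie under 1, and stromal, megakaryocyte and muscle lists lie far under 1.

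The signalling chains of the antigen receptor had similar levels and similar differences. Cd79a (ENSMUSG00000003379, chromosome 7, 24897381 to 24902197, GRCm38) measured 56.4, 45.3 and 33.5 TPM for Control 4, 5 and 6 versus 53.0, 178 and 205 TPM for Onway 1, 2 and 3. Onway 2 and Onway 3 stood at least 3.16-fold above the highest Control library, and Onway 1 lay within the Control range. The group means were 45.1 ± 11.5 and 145.5 ± 81.2 TPM (SD, n = 3), a log2 fold change of 1.48 (SE 0.54, limma adjusted p = 0.30). Cd79b (ENSMUSG00000040592, chromosome 11, 106311341 to 106314762) was at 63.0, 40.1 and 38.2 TPM for Control versus 52.1, 162 and 179 TPM for Onway. It gave the same order of libraries as Cd79a within Onway, and a log2 fold change of 1.31 (SE 0.50, limma adjusted p = 0.33). Its level was 87.0% to 114% of that of Cd79a within each library. Of its 2 annotated transcripts, a form of 1195 bases held 91.0% of the gene's TPM in Control and 93.9% in Onway.

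Ms4a1 and Cd22, which code for the surface protein CD20 and for an inhibitory lectin that binds sialic acid, were lowest in Control 5. Ms4a1 (ENSMUSG00000024673, chromosome 19, 11249675 to 11266241) was at 8.09, 1.39 and 3.27 TPM for Control versus 5.55, 22.4 and 23.6 TPM for Onway. Cd22 (ENSMUSG00000030577, chromosome 7, 30865402 to 30880342) was at 6.40, 1.59 and 3.11 TPM for Control versus 5.79, 25.9 and 32.5 TPM for Onway. For both genes Onway 1 fell between Control 4 and the other Control libraries, so the groups overlapped. On the log2(TPM + 1) scale Cd22 had a log2 fold change of 2.09 (SE 0.71, limma adjusted p = 0.28), and Ms4a1 had one of 1.78 (SE 0.70, adjusted p = 0.36). Relative to Cd79a, Ms4a1 stood at 3.07% in Control 5 and at 9.77% to 14.4% in the other 5 libraries, and Cd22 at 3.51% and at 9.29% to 15.8%. The levels of Cd22 were spread over 18 transcripts, and 2 that were newly assembled by the authors' pipeline, going by their MSTRG identifiers, held 34.5% to 64.2% of its TPM. Annotated transcripts outside GENCODE's protein-coding class made up 7.55% to 19.9% of Cd22 in the Control libraries and 16.2%, 30.0% and 38.6% in Onway 1, Onway 2 and Onway 3.

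The receptors that mark late B cells separated Onway 3 from Onway 2. Cr2, the complement receptor CD21 (ENSMUSG00000026616, chromosome 1, 195136811 to 195176716), was at 1.62, 0.370 and 0.160 TPM for Control versus 1.34, 2.89 and 9.37 TPM for Onway. Fcer2a, the low-affinity IgE receptor CD23 (ENSMUSG00000005540, chromosome 8, 3681737 to 3694175), was at 2.09, 0.170 and 0.810 TPM for Control versus 2.83, 4.5 and 14.5 TPM for Onway. Onway 3 was 3.24-fold above Onway 2 for Cr2 and 3.22-fold for Fcer2a, while Cd79a differed 1.15-fold between the same libraries. Ighd, the constant gene of the IgD receptor of mature B cells, was at 18.0 TPM in Onway 2 and at 77.6 TPM in Onway 3, a 4.30-fold step in the same direction. This contrast between 2 libraries of 1 group has no replicate. The log2 fold changes between the groups were 1.5 for Cr2 (SE 0.59, limma adjusted p = 0.34) and 1.88 for Fcer2a (SE 0.60, adjusted p = 0.23). Both genes were near or under 1 TPM in Control, where log2(TPM + 1) understates a change, and with 0.1 TPM added in place of 1 the values were 2.53 and 2.84 (limma adjusted p = 0.28 and 0.24).

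**Figure D3:**
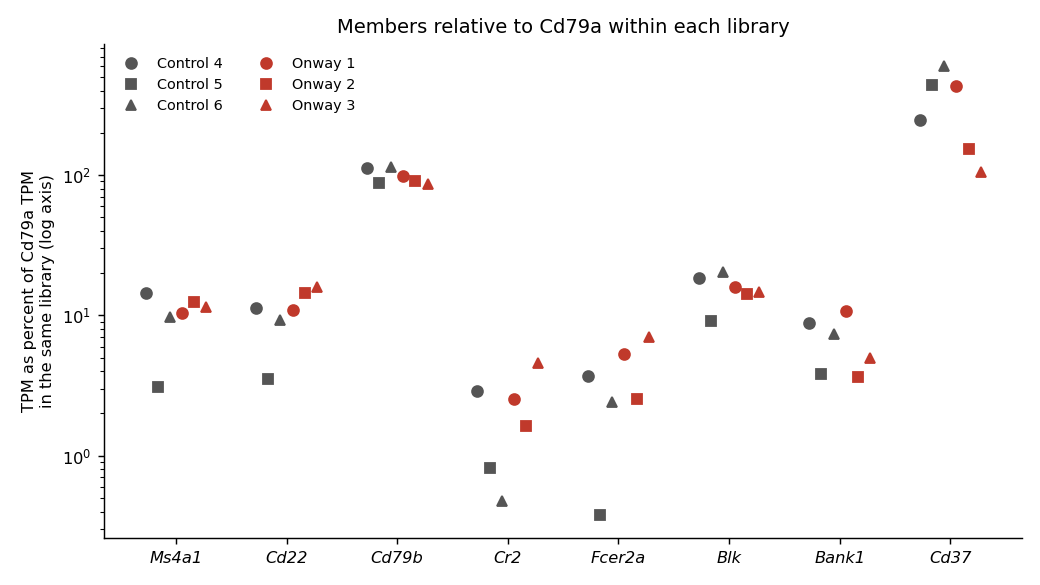
TPM of 8 members as a percent of Cd79a in the same library, on a log axis, with 1 point per library. Cd79b stays between 87.0% and 114%, Cr2 and Fcer2a are highest in Onway 3, and Cd37 ranges from 105.0% to 595%.

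Blk and Bank1, a kinase and an adaptor that act just inside the membrane, differed in how tightly the libraries grouped. Blk (ENSMUSG00000014453, chromosome 14, 63372836 to 63417037) was at 10.5, 4.13 and 6.87 TPM for Control versus 8.48, 25.3 and 30.1 TPM for Onway. Its profile resembled that of Cd79a, with Onway 1 inside the Control range, and the log2 fold change was 1.36 (SE 0.52, limma adjusted p = 0.33). Bank1 (ENSMUSG00000037922, chromosome 3, 136053363 to 136326066) was at 5.01, 1.73 and 2.48 TPM for Control versus 5.73, 6.51 and 10.2 TPM for Onway. Its groups did not overlap, though Onway 1 exceeded Control 4 by only 1.14-fold. With a log2 fold change of 1.10 (SE 0.34) it had the smallest limma adjusted p of the members, 0.18.

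Cd37 (ENSMUSG00000030798), a tetraspanin, was the most abundant member in every library and differed least. It lies at chromosome 7, 45233632 to 45239115, and was at 140.2, 198 and 199 TPM for Control versus 229, 274 and 215 TPM for Onway. All Onway libraries were above all Control libraries, by 1.34-fold between the means (179 ± 33.6 and 239 ± 30.6 TPM), with a log2 fold change of 0.43 (SE 0.21, limma adjusted p = 0.44). Control 4 was its lowest library, although that library had the highest Control level for the other 8 members. Relative to Cd79a it ran from 105.0% in Onway 3 to 595% in Control 6. Its TPM came from 16 transcripts, of which 6 of GENCODE's protein-coding class held 85.6% to 88.4% in each library.

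By group mean, the order of levels was Cd37 first, then Cd79a and Cd79b, whose positions swapped between libraries and which were not separated beyond their spread, then Blk, Cd22 and Ms4a1, whose order among themselves differed between the groups, and then Bank1, Fcer2a and Cr2. By mean, Cr2 was the least abundant member in both groups, at 0.717 ± 0.789 and 4.53 ± 4.26 TPM. Fcer2a was at 1.02 ± 0.978 and 7.27 ± 6.29 TPM, and Bank1 at 3.07 ± 1.72 and 7.48 ± 2.39 TPM (SD, n = 3). Ms4a1 was at 4.25 ± 3.46 and 17.2 ± 10.1 TPM, Cd22 at 3.70 ± 2.46 and 21.4 ± 13.9 TPM, Blk at 7.16 ± 3.18 and 21.3 ± 11.4 TPM, and Cd79b at 47.1 ± 13.8 and 130.9 ± 68.7 TPM. Cd37 was the member with the smallest SD relative to its mean in both groups. The interval covered by an SD overlapped for neighbours from Blk down to Cr2 within Onway.

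Which library was left out decided whether members passed. Without Onway 1, 4 of 9 members did, namely Cd79a (log2 fold change 2.09, SE 0.27, limma adjusted p = 0.0085), Cd79b (1.87, SE 0.27, adjusted p = 0.015), Cd22 (2.81, SE 0.44, adjusted p = 0.031) and Blk (1.89, SE 0.35, adjusted p = 0.038), where 0.507% of all genes passed as higher. Without any other single library 0 of 9 passed, and Bank1 came nearest without Control 4 (limma adjusted p = 0.0503). The sign stayed positive for all 9 members in each of these fits.

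**Figure D4:**
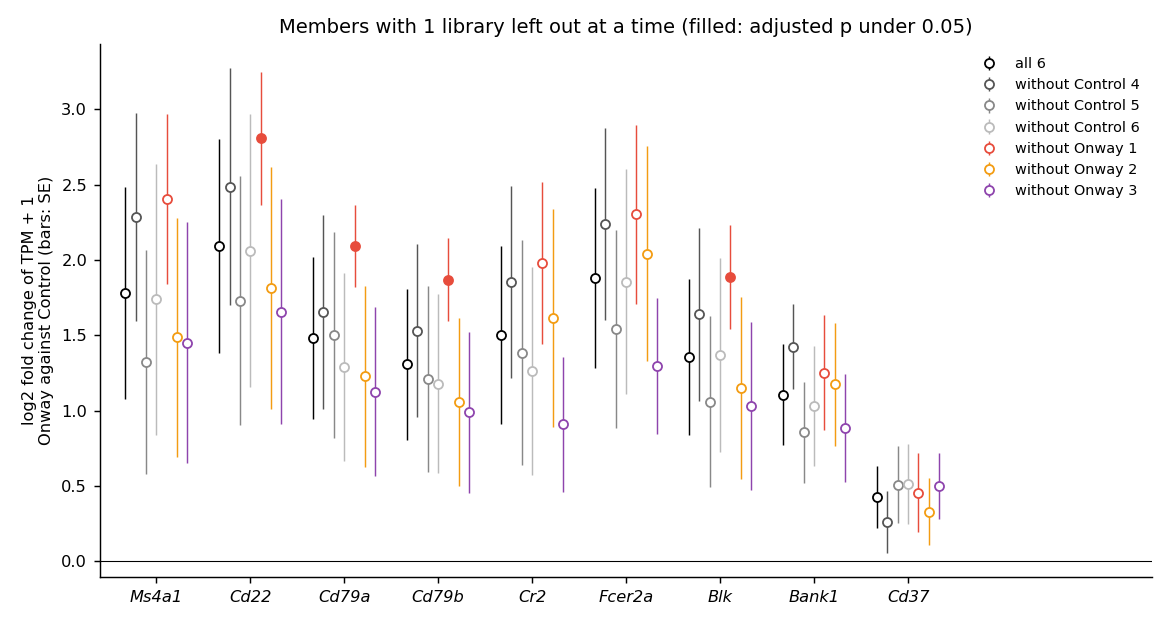
Log2 fold change of TPM + 1 (Onway against Control) with its standard error for each member, from all 6 libraries and with each library left out in turn. Filled points, with an adjusted p under 0.05, appear for Cd22, Cd79a, Cd79b and Blk when Onway 1 is left out.

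The haemoglobin share of a library dilutes every other gene on the TPM scale. It was 26.6%, 11.6% and 18.3% in the Control libraries and 13.4%, 9.38% and 33.9% in the Onway libraries. With haemoglobin genes removed and the rest rescaled, Cd79a stood at 76.8, 51.3 and 40.9 TPM for Control versus 61.1, 197 and 310 TPM for Onway. Onway 3 stood further above Onway 2 on this scale, and the ratio of group means went from 3.23 to 3.36. On this scale 0 of 9 members passed, 4 of 9 had an unadjusted p under 0.05, and the adjusted p-values began at 0.25 (Cd37).

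Lists chosen with earlier results of these data known gave other genes of the B cell pathway. The 5 lists held 62 symbols, of which 60 were tested. Of these 54 had a positive sign, 28 were higher at an unadjusted p under 0.05, and 1 passed over all genes, with 0 lower. Over all tested genes the matching shares were 53.6%, 4.95% and, for passing as higher, 0.233%. How far the 28 rest on single libraries was not examined. The gene that passed was Cxcr4, a chemokine receptor that holds B cells and other leucocytes in the marrow. Cxcr4 rose from 167 ± 21.2 to 302 ± 22.6 TPM (SD, n = 3). Its Control values were 184, 144 and 174 TPM and its Onway values 302, 324 and 279 TPM, with a log2 fold change of 0.85 (SE 0.18, limma adjusted p = 0.047). The call was lost in 11 of 15 alternative fits, the removal of each single library among them, with adjusted p-values of 0.024 to 0.18 over the 15.

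Among 7 other receptor and co-receptor genes 6 had a positive sign and 0 passed (median log2 fold change 0.72). All Onway libraries exceeded all Control libraries for 1 gene (Ighd) and lay under them for 1 (Cd81), where 6.95% and 11.5% of all tested genes did. Cd81 was at 76.1, 62.6 and 66.6 TPM for Control versus 62.1, 55.1 and 59.8 TPM for Onway (limma adjusted p = 0.65). It was named after its values were seen. Ighd was at 6.14 ± 4.13 and 36.2 ± 35.9 TPM, Cd40, a co-stimulatory receptor, at 3.61 ± 2.33 and 10.9 ± 5.15 TPM, and Ptprc, the leucocyte phosphatase CD45, at 131 ± 29.0 and 210.1 ± 60.0 TPM (limma adjusted p = 0.31, 0.28 and 0.37).

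Of 19 kinases, adaptors and effectors 16 had a positive sign and 0 passed, with a median log2 fold change of 0.46. Pik3ap1, an adaptor for PI 3-kinase, was at 24.1 ± 1.84 and 40.1 ± 9.23 TPM. Malt1, a protease on the route to NF-kB, was at 11.8 ± 0.728 and 19.4 ± 4.47 TPM, and Syk, the kinase recruited by Cd79a and Cd79b, at 78.0 ± 4.92 and 114.5 ± 24.3 TPM (limma adjusted p = 0.15, 0.19 and 0.29). In these 3 genes all Onway libraries exceeded all Control libraries. Over the 19 genes 5 separated in that direction and 2 in the other, where 6.95% and 11.5% of all tested genes did. The 2 were Dapp1, an adaptor, at 18.4, 17.2 and 20.0 TPM for Control versus 15.7, 16.1 and 13.0 TPM for Onway, and Fyn, a Src family kinase, at 14.4, 11.52 and 11.8 versus 7.93, 11.1 and 11.48 TPM. Both were named after their values were seen, and neither passed the test (limma adjusted p = 0.50 and 0.59). Of 12 inhibitory receptors and phosphatases 10 were tested, 9 with a positive sign and 0 passing (median 0.62). Fcrl1 was at 5.63 ± 0.846 and 9.80 ± 1.17 TPM, Csk, which restrains Src family kinases, at 76.3 ± 3.56 and 112 ± 9.45 TPM, and Ptpn6, the phosphatase that Cd22 recruits, at 167 ± 32.1 and 271 ± 62.2 TPM (adjusted p = 0.11, 0.15 and 0.27).

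All 12 B lineage transcription regulators had a positive sign and 0 passed, with a median log2 fold change of 1.05. Irf8, which myeloid cells also use, was at 39.4 ± 6.35 and 73.8 ± 14.04 TPM, Pou2f2, the Oct-2 factor, at 1.87 ± 0.824 and 5.52 ± 1.37 TPM, and Ikzf3 at 6.79 ± 2.88 and 21.6 ± 8.01 TPM (limma adjusted p = 0.071, 0.075 and 0.088). Each had an adjusted p under 0.05 in at least 1 alternative fit, the lowest being 0.023, 0.046 and 0.035. Of 12 survival and homing receptors 11 had a positive sign, with Cxcr4 the one called and a median of 0.49. Tnfrsf13b, a receptor for the survival factors BAFF and APRIL, was at 31.6 ± 2.30 and 53.9 ± 10.3 TPM, and Cd55, a complement regulator, at 21.1 ± 1.38 and 28.6 ± 1.71 TPM (adjusted p = 0.11 and 0.26).

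**Figure D5:**
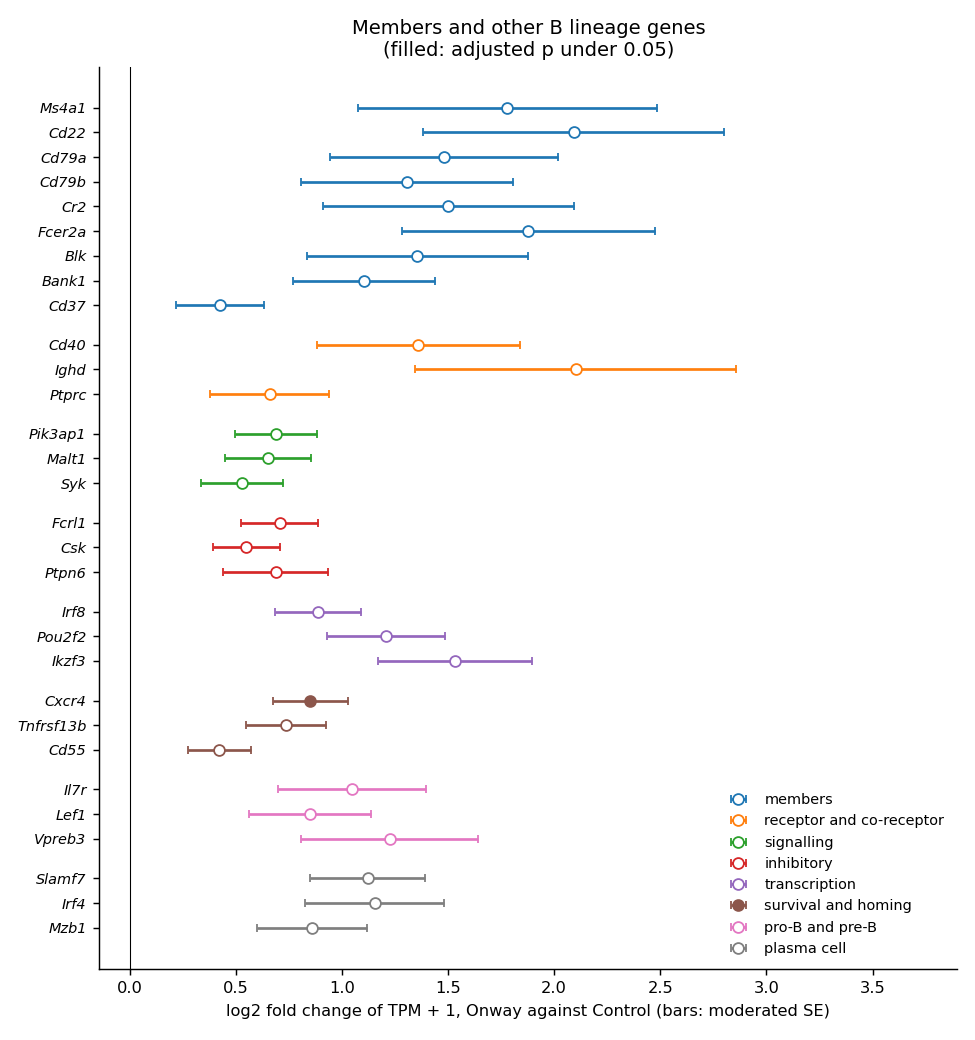
Log2 fold change of TPM + 1 (Onway against Control) with moderated standard errors for the 9 members and for named genes of 7 other B lineage lists. All plotted values are positive, and Cxcr4 (0.85) carries the only filled point, an adjusted p under 0.05. The genes plotted beside the members are the 3 with the smallest p in each list, so the shared sign follows in part from that choice. A positive sign was found in 54 of 60 tested genes of the 5 pathway lists, 13 of 14 pro-B and pre-B markers and 6 of 8 plasma cell markers.

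Earlier and later stages of the lineage gave no called gene. Of 14 pro-B and pre-B markers 13 had a positive sign (median log2 fold change 0.57). Vpreb3, a protein of B cell precursors, was at 65.4, 76.2 and 50.1 TPM for Control versus 75.6, 212 and 204 TPM for Onway (limma adjusted p = 0.26), and Il7r, the receptor for the growth factor of pro-B cells, was at 8.10 ± 1.05 and 19.2 ± 8.43 TPM (adjusted p = 0.24). Without Onway 1 these 2 genes had an adjusted p of 0.015 each. Lef1 was at 4.17 ± 1.49 and 8.27 ± 2.34 TPM (adjusted p = 0.24). Control 5, the lowest library for 5 of the 9 members, was the highest for Vpreb1 (71.2 TPM), Vpreb2 (17.6 TPM) and Dntt (29.9 TPM). For Igll1 it was level with Onway 3 (84.58 and 84.59 TPM). The other markers of this list were highest in an Onway library. These 4 genes were named after their values were seen. Of 10 plasma cell markers 8 were tested, 6 with a positive sign. Slamf7 was at 3.12 ± 0.838 and 8.08 ± 2.55 TPM, Irf4 at 7.24 ± 2.09 and 18.0 ± 6.93 TPM, and Mzb1 at 28.7 ± 8.26 and 52.0 ± 9.31 TPM (adjusted p = 0.087, 0.16 and 0.18).

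Tested genes were ranked by how close their pattern over the 6 libraries came to the average of the members. The measure was the root mean square difference of centred log2(TPM + 1). Members, immunoglobulin heavy-chain and light-chain genes, predicted or clone-style gene names and genes without a symbol were left out of the ranking. The 5 closest of the rest were Sbk1, a kinase (difference 0.10), Myl4, a myosin light chain (0.15), Cd40 (0.21), Cd74 (0.22) and Chst3 (0.23). Cd74 is the chain that guides MHC class II molecules, and Chst3 is a sulfotransferase. The median over all tested genes was 0.95. Sbk1 was at 7.53, 3.27 and 4.39 TPM for Control versus 7.53, 18.1 and 20.4 TPM for Onway, and Cd74 at 179, 75.1 and 139 TPM and at 189, 315 and 490 TPM. Of the members, Blk lay closest to their average (0.15) and Cd37 farthest (0.83). These 6 values per gene share their libraries and scaling, so the likeness is a description. The limma adjusted p of the 5 genes was 0.18 to 0.28.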

How the data were processed

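Per the labels' protocols, RNA came from RNeasy columns and a SMARTer kit for mRNA gave the libraries. The authors deposited TPM for 158850 transcripts, 71 of them of the 9 members, and the 6 libraries summed to 1000000 to 1000001 TPM. GRCm38 and mm10 are the builds named by the submitters' processing notes. No aligner, quantifier or strand setting was given in the sources used here. TPM keeps no read depth, so the depth is unknown and no counting interval or floor is given. The Onway columns, named N1 to N3, were matched to Onway 1 to Onway 3 by number.

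Transcript TPM were summed per gene. Genes whose mean over the 6 libraries reached 1 TPM were analysed as log2(TPM + 1) with limma 3.58.1 in R 4.3.3 (trend and robust moderation, no covariate), two-sided, with Benjamini-Hochberg adjustment over all of them at 0.05. The script was tested on simulated data. Coordinates are from GENCODE M21. The length column, deposited by the authors and classed as other, served only to describe transcripts.

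The members and the 15 gene lists (182 of 185 symbols found) were chosen with earlier results of these data known. Named genes are the members and the 3 list genes with the smallest p in each B lineage list, with any that passed. The 5 genes most like the members were also named, with immunoglobulin genes, predicted or clone-style names and genes without a symbol left out. Alternatives were 2 pseudocounts, 2 level filters, 3 scalings, a plain variance model, and fits with libraries left out.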

Additional observations from a re-analysis of the deposited data

Results flagged for a closer look

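The authors' deposited group means hold a further value in each group that entered no comparison. Every mean in the authors' deposited table can be a mean of 4 values with the decimals of the table, and for 0 transcripts was 4 times the mean under the sum of the 3 libraries by more than 0.011 TPM. What 4 times the mean leaves for Onway was above every Control library, and above the value left for Control, in all 9 members. The share of all genes with this order was not computed, so the count is a description. For Cd79a it was 84.1 TPM in Onway and 40.3 TPM in Control, and for Cd79b 79.2 and 40.4 TPM. For Ms4a1 it was 13.5 and 4.07 TPM, for Cd22 16.7 and 4.11 TPM, for Blk 14.6 and 5.76 TPM, for Bank1 6.88 and 2.73 TPM, for Cr2 5.25 and 0.780 TPM, for Fcer2a 8.74 and 1.66 TPM, and for Cd37 206 and 162 TPM. For the megakaryocyte list the same arithmetic left 1008 and 1201 TPM, Control first, and 21.9 and 20.8 TPM for the muscle list, where the 3 libraries per group differed far more. For other lists the order was the opposite or level, with 1265 TPM left for Control and 550.5 TPM for Onway over the immediate early genes, 473 and 363 TPM over the plasma cell markers, and 155 and 152 TPM over the follicular dendritic and stromal markers. Each is a derived value with no label of its own, and none was tested. In the authors' deposited table the group means of Cd79a were 43.9 and 130.1 TPM.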

How the results depend on the processing

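The sign of the log2 fold change was positive for all 9 members in every alternative that tested them, and Cr2 and Fcer2a were not tested where a mean of 5 TPM was required. The count of members past the threshold was 0 in all alternatives other than the fit without Onway 1, and leaving out 1 library at a time gave 0 to 4. Over all genes 457 passed, 203 with a mean of at least 5 TPM required and 266 to 516 with 1 library left out. Of the other B cell pathway genes 1 passed, 0 did with 5 TPM added before the log, with no level filter, with a mean of at least 5 TPM or with haemoglobin removed, 5 did with median-of-ratios scaling, 4 with quantile normalization, and 0 to 8 with 1 library left out. The causes of these shifts were not tested. No named gene changed sign. No paired analysis was possible because the groups share no replicate numbers. With 3 libraries per group and unknown depth, the standard errors of the members were 0.21 to 0.71 on the log2 scale, against a median of 0.22 over all tested genes, and differences of the size seen in the members did not pass.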
